A study of Rattus norvegicus with 40 samples.

Results

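The regions described here are genic regions that were unmethylated in blood T cells and carried methylation in kidney T cells of salt-sensitive rats. They were selected on measured values: regions at a transcription start site (TSS) or inside a gene body, with a methylation level of at most 10% in blood and a level at least 15 percentage points higher in kidney, in Dahl SS rats of the MCW colony fed HS chow. Of 60906 regions in that comparison, 29107 were genic, 12068 of these were at most 10% in blood, and 305 met the rule. They lay at 98 TSS and 207 gene body positions of 273 genes, and 34 genes held more than 1. The other 11763 blood-unmethylated genic regions gained less.

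Reduced representation bisulfite sequencing, which reads methylation at CpG-rich fragments, was applied to T cells of Dahl salt-sensitive rats, inbred animals that become hypertensive when fed salt. The rats came from 2 colonies, SS/JrHsdMcwi (MCW) and SS/JrHsdMcwiCrl (CRL). At 10 weeks of age each colony had rats on LS chow and rats given HS chow for 3 weeks, and MCW rats on LS chow were also taken at the age of 7 weeks. The labels do not spell out LS and HS, and the abbreviations are kept. Rats were pooled by 3, with 4 pools to a condition, and circulating and kidney T cells of the 20 pools gave 40 libraries in 10 groups. The sources used here do not give the isolation of the T cells or the sex of the rats. Below, the 4 conditions that the rule did not use are listed in the order MCW LS, CRL LS, CRL HS (all at 10 weeks) and 7-week MCW LS rats, unless named.

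The authors' tables hold 1 mean level per group and region, without values for single pools or read depth, so no replicate spread stands beside any level. A region counts as called where the authors' adjusted Mann-Whitney p was under 0.05 and their difference at least 10 points. In the authors' deposited tables the p-values reach 2.9e-14, while an exact two-sided test of 4 pools against 4 cannot go below 0.0286, so the pool is not their unit and a call describes these pools. Positions are those of build rn5.

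In mammalian cells, CpGs in active promoters and enhancers are mostly free of methylation, and the methyl groups elsewhere are written by DNA methyltransferases and copied at each cell division. Regions used by one cell lineage are commonly unmethylated in that lineage and methylated in others. A level between the extremes in a mixed sample cannot tell a fully methylated minority of cells from partial methylation in every cell.

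Promoter sequences are shown to give the base context of 6 members at start sites, picked after their values were seen. They come from RefSeq for assembly GRCr8, hold the 250 bases before the gene's start and are written 5′ to 3′ in the gene's direction with each CpG in capitals. Cd37 (chr1:104860785-104861034, minus strand) is a tetraspanin of leukocytes, and Lat (chr1:190372137-190372386, minus strand) is a membrane adaptor on which T cell receptor signalling complexes assemble. Cybb (chrX:16065066-16065315, minus strand) encodes the membrane subunit of the phagocyte NADPH oxidase, and Fgd3 (chr17:15542984-15543233, plus strand) an exchange factor for Cdc42. Socs3 (chr10:103694769-103695018, minus strand) is a feedback inhibitor of cytokine signalling, and Dnmt3a (chr6:32598352-32598601, plus strand) a de novo DNA methyltransferase.
Cd37: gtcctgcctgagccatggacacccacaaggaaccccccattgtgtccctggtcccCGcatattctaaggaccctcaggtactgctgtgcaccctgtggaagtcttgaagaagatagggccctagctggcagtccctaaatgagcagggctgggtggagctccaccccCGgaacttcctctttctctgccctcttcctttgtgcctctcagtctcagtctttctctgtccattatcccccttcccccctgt
Lat: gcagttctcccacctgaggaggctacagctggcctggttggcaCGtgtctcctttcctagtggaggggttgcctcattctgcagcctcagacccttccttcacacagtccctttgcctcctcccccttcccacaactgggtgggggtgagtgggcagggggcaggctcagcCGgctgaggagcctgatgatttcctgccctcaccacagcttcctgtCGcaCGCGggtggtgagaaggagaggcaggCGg
Cybb: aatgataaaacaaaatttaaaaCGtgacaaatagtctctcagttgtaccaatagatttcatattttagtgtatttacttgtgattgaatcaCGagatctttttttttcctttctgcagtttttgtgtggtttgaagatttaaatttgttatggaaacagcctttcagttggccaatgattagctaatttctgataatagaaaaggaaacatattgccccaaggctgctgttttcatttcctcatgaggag
Fgd3: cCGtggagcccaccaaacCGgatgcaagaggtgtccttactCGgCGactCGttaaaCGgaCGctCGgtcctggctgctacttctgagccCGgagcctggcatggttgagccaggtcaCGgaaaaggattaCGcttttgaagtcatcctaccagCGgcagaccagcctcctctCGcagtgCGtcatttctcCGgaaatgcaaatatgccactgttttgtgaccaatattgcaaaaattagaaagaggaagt
Socs3: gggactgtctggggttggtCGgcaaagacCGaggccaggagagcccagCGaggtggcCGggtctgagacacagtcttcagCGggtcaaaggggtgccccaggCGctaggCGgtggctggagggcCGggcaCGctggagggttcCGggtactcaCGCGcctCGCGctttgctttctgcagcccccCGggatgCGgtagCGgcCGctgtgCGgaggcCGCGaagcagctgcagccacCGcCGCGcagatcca
Dnmt3a: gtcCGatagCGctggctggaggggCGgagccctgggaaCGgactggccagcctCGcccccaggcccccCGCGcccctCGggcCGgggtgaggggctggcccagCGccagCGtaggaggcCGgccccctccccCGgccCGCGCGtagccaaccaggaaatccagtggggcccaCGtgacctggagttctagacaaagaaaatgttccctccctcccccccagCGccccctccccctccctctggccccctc

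These windows held 2 CpGs in Cd37 and in Cybb, 6 in Lat, 15 in Fgd3, 18 in Dnmt3a and 24 in Socs3. The regions of the tables hold at least 5 CpGs, so the windows of Cd37 and Cybb carry fewer CpGs than any region. The rn5 positions could not be placed in GRCr8 here, and a window is therefore the context of a gene's start and not the measured region. Of 97 genes at TSS members, 73 had a promoter in the RefSeq table. Their median was 13 CpGs per window, against 18 for 3290 promoters of other genes with a blood-unmethylated TSS region and 6 over all 27457 promoters. Fewer than 10 CpGs were present in 28 of the 73 (38.4%), in 16.6% of the 3290 and in 61.6% of all.

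Short motifs were searched in these windows on both strands, as letters only. AGGAAG, the core of ETS factor sites, was present in 31 of the 73 promoters (42.5%), in 26.5% of the 3290 and in 29.4% of all. TGTGGT, the RUNX core, was present in 12 (16.4%), against 7.63% and 14.1%. GGGCGG, the GC box, was present in 41 (56.2%), against 66.8% and 32.4%. CACGTG, an E-box, was present in 9 (12.3%) against 7.81% and 5.79%, and TATAAA in 3 (4.11%) against 6.23% and 13.1%. Lat held 2 AGGAAG, 1 TGTGGT and 1 CACGTG, and Cd37 held 2 AGGAAG. These are matches of letters and were not tested.

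Members were long and poor in CpGs for regions of this kind. Their median length was 135 bp with 4.76 CpGs per 100 bp, against 60 bp and 10.5 CpGs per 100 bp in the 11763 other blood-unmethylated genic regions. The difference in density held within each class of position: 4.50 against 10.6 at TSS and 4.84 against 10.2 in gene bodies. Gene bodies made up 67.9% of members and 14.4% of the others. The sources used here do not give how regions were delimited. Length and density may therefore not be fully apart from the rule, and no test was made. The smallest size, 5 CpGs, was that of 159 members, and 64 held 10 or more.

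**Figure D1:**
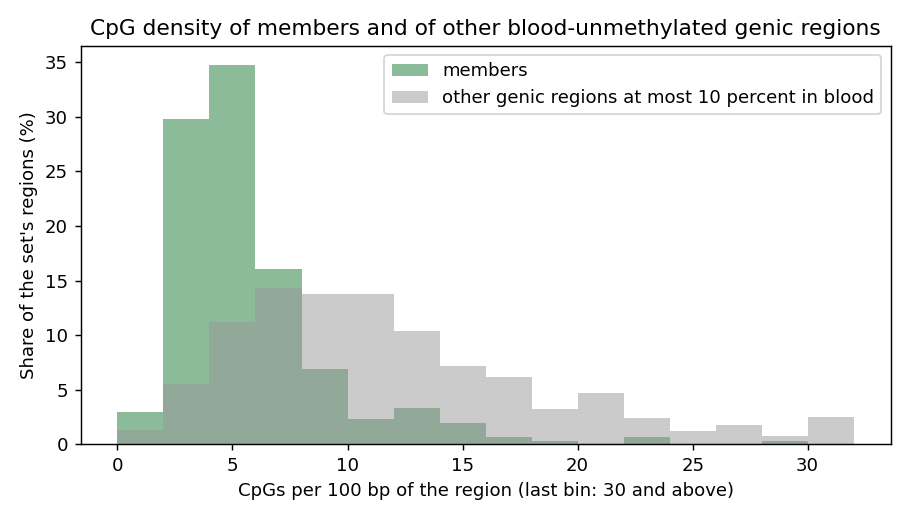
Share of regions (y axis, percent of each set) by CpGs per 100 bp (x axis, steps of 2) for the 305 members and the 11763 other genic regions at most 10% in blood of MCW HS rats. The members pile up at low density, with a median of 4.76 against 10.5.

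In the samples of the rule, the median member stood at 2.64% in blood and 31.4% in kidney, a gain of 27.5 points with a range from 15.0 to 65.1. The gain was 15 to 20 points in 68 members, 20 to 30 in 104, 30 to 40 in 81, 40 to 50 in 44 and above that in 8. Of the 305, 304 were called higher, where 2.98% of all regions of the table were; the rule used these values and nothing is read from the count. The largest gain was at the Grap2 TSS (chr7:121782257-121782444), 0% in blood and 65.1% in kidney. Just inside the limit on the gain lay Nacc2 (15.0163 points), Bdh1 (15.2) and the Crlf2/Csf2ra region (15.4). Just outside lay regions of Mir149, Phka1 and Cacna1g with 14.9974, 14.9782 and 14.9 points. At the limit on blood, Bcor (9.97%), Schip1 (9.94%) and Hoxd4 (9.93%) were inside, and Ank3 (10.2%) and Abcc4 (10.3%) outside.

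Not every member is a separate measurement. In 14 members the number of CpGs, both levels and the p-value were identical to those of another region, as in 2991 of 58547 regions of the table above 0 in both tissues (5.11%). Among them were 6 pairs of members, in Abcg1, Cdh22, Gas2l2, Rasl10b and, with 2 pairs, RGD1564419, which leaves 299 distinct members. The members of Gas2l2 and Rasl10b repeat at the same distance of 828195 bp, and those of RGD1564419 at 85524 bp. An RT1-CE14 member and Kcnk13 have an identical region outside the set. Values of these genes, and of the RT1-CE family of closely related class I genes, are uncertain in their position. Bcdin3d and Lima1, with 3 of the 8 members on chromosome X of rn5, lie on an autosome in GRCr8, the only 2 of 273 member genes whose chromosome differs.

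The other conditions repeated the difference between tissues in pools that the rule had not used. In the 10-week MCW LS rats, 240 members overlapped a region, and 222 (92.5%) of these were called higher in kidney and 0 lower, against 2.31% of all regions called higher. CRL rats on LS chow had 195 members with a region, of which 175 (89.7%) were called higher (1.99% of all regions). For CRL rats on HS chow the count was 220 of 226 (97.3%, with 2.61% of all regions), and for 7-week-old MCW rats on LS chow 227 of 239 (95.0%, with 1.99%). Among genic regions at most 10% in blood in the same tables, 2.15%, 1.34%, 2.55% and 1.23% were called higher, in this order. The other 11763 blood-unmethylated regions, followed in the same way, were called higher in 1.04%, 1.39%, 1.63% and 1.08%. No member was called lower in any of the 4 conditions.

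By the authors' q-value, a separate column, fewer members passed. With it under 0.05 in place of the adjusted p, 35.8%, 37.4%, 45.1% and 45.2% of members were called higher, where 0.527%, 0.389%, 0.651% and 0.475% of all regions were. Regions listed at 0 in blood never passed it: all 1090 such regions in the table of the rule had a q-value of 1, as did all 16 members among them, although their adjusted Mann-Whitney p in the authors' deposited table lay between 2.8e-11 and 3.46e-05.

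Of the 305 members, 176 overlapped a region in all 4 other conditions, and 154 of these (87.5%) were called higher in each. The count was 53 of 57 at TSS and 101 of 119 in gene bodies. A further 88 members had a region in 1 to 3 of the tables, and 41 in none. Over the 264 with at least 1 region, 222 were called wherever they had one, and 9 were called nowhere. Since members next to each other can overlap the same larger region, the 240, 195, 226 and 239 members followed correspond to 232, 190, 220 and 233 separate regions.

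The limits of a followed region were those of the member in 135, 80, 126 and 149 cases, and levels set side by side below can otherwise cover different stretches. The size of the difference was also similar. For the 176 members with a region in every table, the median blood level was 2.72% in MCW HS, the condition of the rule, and 2.16%, 2.75%, 2.71% and 2.39% in the others. Median kidney levels were 30.6% in MCW HS and 26.0%, 31.9%, 31.9% and 31.1% in the others. The 10-week MCW LS rats had the lowest kidney level of the 4 at 89 of the 176 members (50.6%). The lowest was in 7-week rats at 39 members, in CRL LS rats at 38 and in CRL HS rats at 10. Blood levels stayed at or under 10% in 163, 163, 161 and 166 of the 176. The member of Ube4b, a ubiquitin chain elongation factor, stood apart with blood levels between 31.8% and 38.2%, in overlapping regions that began before the member.

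**Figure D2:**
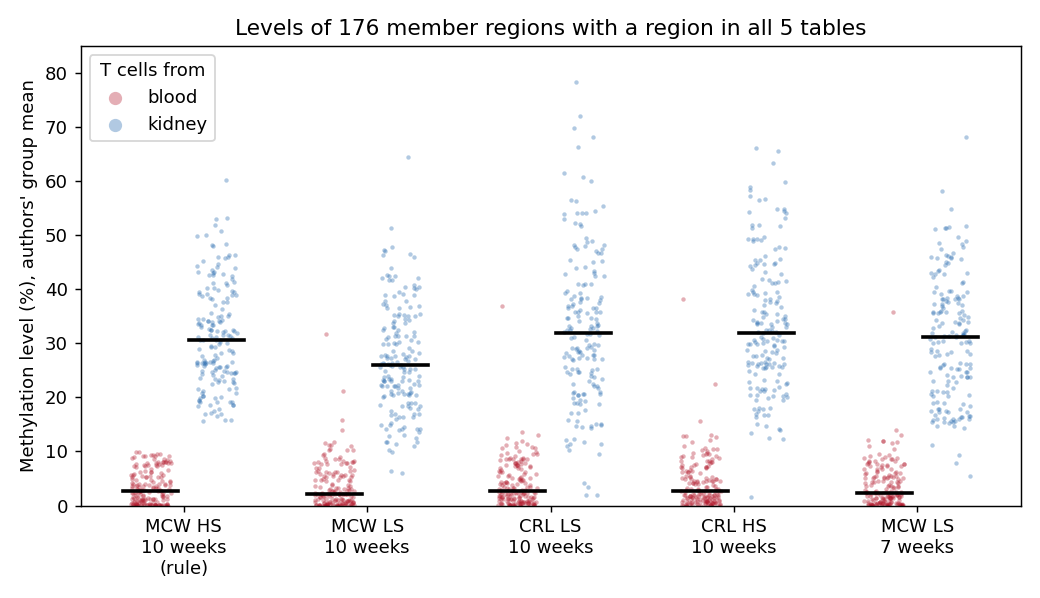
Methylation level (y axis, percent) of 176 members in blood and kidney T cells in each condition (x axis); points are regions and black lines medians. Blood medians lie between 2.16% and 2.75% and kidney medians between 26.0% and 31.9%.

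Members with a larger gain in MCW HS kept a larger one elsewhere. Those that gained 15 to 20 points had median gains of 15.3, 15.6, 18.9 and 16.8 points elsewhere, and those that gained 40 or more had 36.0, 46.5, 49.5 and 44.4. Regions that missed the rule with 10 to 15 points had 10.2, 11.2, 12.0 and 10.3 points, and 51.0%, 56.7%, 71.7% and 53.0% of those followed were called higher. The limit of 15 points thus lay within a continuous range.

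Some genes of T cell receptor signalling held members, in a list whose genes were called in both directions. Of 25 genes of a list of T cell receptor and T cell identity genes with a region, 15 had one at most 10% in blood, and 6 were member genes (Cd247, Lat, Grap2, Ubash3a, Kcnn4 and Ets1). Over the whole list, genes with a region called higher in kidney numbered 10 of 23, 10 of 23, 12 of 24 and 13 of 23 in the other conditions, and genes with a region called lower 10, 10, 12 and 9. For this list and those below, the share of all genes with a region called lower was 42.3%, 31.6%, 41.1% and 31.3%. The share of all genes with a region called higher was not counted. Of the 8 members in the list, 3 had a region in all 4 tables, with median gains of 31.2 points (Lat), 22.9 (Ubash3a TSS) and 30.4 (Ubash3a gene body). At the Lat TSS (chr1:204752596-204752776, 9 CpGs), blood levels were 0.0403%, 0%, 0.188% and 0%, and kidney levels were 33.7%, 27.6%, 30.7% and 31.9%. The second and last of these values cover only the first part of the member, chr1:204752596-204752649, so they are not levels of the same stretch as the others. Every kidney level was above every blood level. The TSS of Kcnn4 (chr1:82495575-82495920, 11 CpGs), a calcium-activated potassium channel of activated T cells, had 5.00%, 3.33% and 8.21% in blood and 63.0%, 72.1% and 59.8% in kidney, with no region in CRL HS.

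Grap2, an adaptor that binds Slp-76, could be followed in CRL HS alone, where its TSS was at 0% in blood and 69.9% in kidney and its gene body member at 2.99% and 64.0%. Ubash3a, a suppressor of receptor signalling, had a TSS member (chr20:12127430-12127730) with kidney levels from 15.0% to 30.4% and blood levels from 0.106% to 2.78%. Its gene body member ran from 35.8% to 41.4% in kidney and from 7.72% to 12.5% in blood. The transcription factor gene Ets1 had 1.74% in blood and 47.1% in kidney at 7 weeks, the only table with a region. The member of Cd247, the zeta chain of the receptor, had 7.00% and 63.6% in MCW HS and no region elsewhere.

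Genes active in all leukocytes gave 10 member genes, of 15 with a blood-unmethylated region and 34 with any: Arhgap25, Nckap1l, Cd37, Itgal, Ptpn6, Arhgap30, Rhoh, Pik3cd, Elmo1 and Parvg. Over the whole list more genes had a region called lower in kidney (15 of 28, 13 of 26, 15 of 30 and 19 of 33) than one called higher (12, 9, 12 and 11). Of all genes, 42.3%, 31.6%, 41.1% and 31.3% had one called lower. At the Cd37 TSS (chr1:102300464-102300567), levels were 1.97%, 1.05% and 0.649% in blood and 42.7%, 58.5% and 61.8% in kidney of MCW LS, CRL LS and CRL HS rats. Ptpn6, which encodes the phosphatase SHP-1, had a gene body member (chr4:224269265-224269431) with 0.0801%, 1.27%, 0.101% and 0.301% in blood and 42.5%, 61.6%, 49.4% and 45.9% in kidney. At the TSS of Itgal, the alpha chain of the integrin LFA-1 (chr1:205742370-205742599), blood was at 7.03%, 7.32%, 5.41% and 5.02% and kidney at 36.9%, 53.9%, 49.1% and 45.6%.

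Pik3cd, the leukocyte catalytic subunit of PI3 kinase, had a gene body member with kidney levels between 37.7% and 53.1% and blood levels under 1% (at most 0.992%). Nckap1l, a subunit of the actin-regulating WAVE complex in blood cells, ranged from 36.3% to 49.9% in kidney and from 0.116% to 0.733% in blood over 3 conditions. The member of Elmo1, a partner of Dock family exchange factors, spread more widely in kidney, with 36.5% in CRL LS and 57.2% in CRL HS rats and at most 0.291% in blood. In Cd37, Ptpn6, Itgal, Pik3cd, Nckap1l and Elmo1, all named for large gains, the lowest kidney level was above the highest blood level. Blood cell transcription factors gave 1 member gene (Ets1) of 25 with a blood-unmethylated region. Over that list, 3 of 32, 4 of 32, 5 of 28 and 5 of 33 genes had a region called higher in kidney. Those with a region called lower numbered 16, 12, 14 and 10. Over all genic regions at most 10% in blood, 305 of 12068 were members. The share of all genes that are member genes was not counted, and the difference between lists was not tested.

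Of 11 cytokine and cytokine signalling genes with a blood-unmethylated region 4 were member genes, and of 4 trafficking genes 2 were. Of cytokine genes as a list, 10 of 22, 9 of 22, 9 of 20 and 10 of 26 were called lower in kidney and 4, 1, 1 and 2 higher. Of all genes, 42.3%, 31.6%, 41.1% and 31.3% had a region called lower. Trafficking genes were called higher at 3 of 10, 3 of 9, 5 of 12 and 4 of 12 and lower at 3, 4, 4 and 5. Osm, the cytokine oncostatin M, had 0%, 0.497%, 0% and 0.0401% at its TSS (chr14:85148527-85148695) in blood and 31.3%, 42.9%, 54.2% and 39.8% in kidney; it is in no list and was named for the size of its gain. At the Socs3 TSS (chr10:106613195-106613286), blood was between 4.77% and 5.99%, and kidney was at 36.5%, 40.9%, 44.7% and 35.6%. Klf2, a transcription factor of quiescent T cells that controls homing receptors, had blood levels between 2.10% and 3.04% over the 18 CpGs at its TSS (chr16:19084042-19084323). Its kidney levels fell into a lower pair, 30.2% and 32.1% in MCW LS and CRL LS at 10 weeks, and a higher pair, 44.9% and 44.9% in CRL HS and MCW LS at 7 weeks. Lta, Tnfrsf18 and Map4k1, the gene of the kinase HPK1, were called higher in every table with a region, which was 1, 2 and 1 tables.

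Cybb was the only member among 10 salt, renin-angiotensin and oxidant genes with a blood-unmethylated region. Its TSS (chrX:15357847-15357922, 5 CpGs) had 3.47%, 4.26%, 2.16% and 1.91% in blood and 46.0%, 69.8%, 59.0% and 42.9% in kidney. The adjusted p in the authors' deposited tables was between 4.5e-08 and 6.2e-07. Over the whole list, 9 of 21, 6 of 20, 10 of 23 and 11 of 22 genes had a region called lower in kidney. Of all genes, 42.3%, 31.6%, 41.1% and 31.3% did. Genes of the list with a region called higher numbered 2, 1, 2 and 2.

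Among start sites called in all 4 conditions, the largest median gains were at Ubxn10/Pla2g2c (52.6 points) and Fgd3 (52.0 points). At Fgd3 (chr17:17807222-17807366, 12 CpGs) kidney levels were 43.9%, 56.6%, 54.2% and 51.7%, and blood levels at most 1.06%. In gene bodies called in all 4 the largest were at Rgs6, a regulator of G protein signalling, and Sema4f, a semaphorin. At Rgs6 (chr6:114717154-114717309) kidney levels were 38.7%, 52.1%, 65.6% and 58.2% with at most 1.96% in blood, and at Sema4f (chr4:178416192-178416429) they were 47.2%, 68.2%, 63.4% and 51.6% with at most 4.78%. In all 20 regions of the plot of named members every kidney level was above every blood level. These regions were chosen for the largest gains among members called in all 4 conditions, so this follows largely from the choice.

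**Figure D3:**
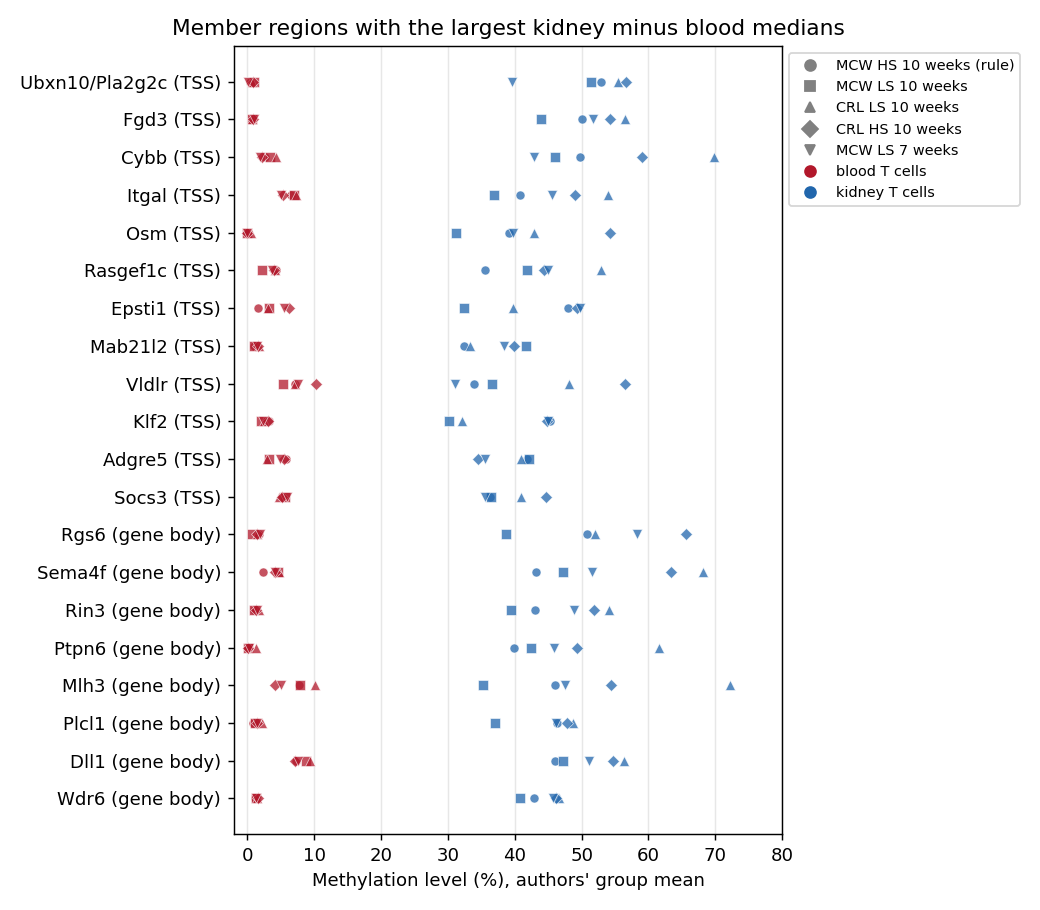
Level (x axis, percent) in blood (red) and kidney (blue) of the 12 TSS and 8 gene body members with the largest median gain over the 4 conditions not used by the rule; symbols mark all 5 conditions. The 2 tissues do not overlap in any of these members, which follows largely from choosing the largest gains among members called in all 4 conditions. Kidney levels spread more than blood levels, at Mlh3 from 35.3% to 72.1%.

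All 3 genes of the DNA methylation machinery with a blood-unmethylated region were member genes, a count not compared with that of other genes. Over the whole list, 2 of 6, 2 of 11, 2 of 7 and 2 of 12 genes had a region called higher in kidney. Genes with a region called lower numbered 2, 1, 1 and 3. Dnmt3a had 2 TSS members: one (chr6:38132746-38133067, 13 CpGs) with 3.81%, 5.09%, 5.19% and 1.63% in blood and 18.3%, 24.0%, 31.4% and 16.3% in kidney, the other with 27.4%, 16.7% and 19.1% in kidney of MCW LS, CRL HS and 7-week rats. Dnmt3l, a catalytically inactive cofactor of the de novo enzymes, had kidney levels between 31.4% and 35.9% in its larger member (chr20:13525914-13526073) with blood between 4.56% and 12.9%. Dnmt3b had 1.56% and 50.6% in MCW HS and no region in the other 4 tables.

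Developmental regulators and some tubule genes were also among the members. Among homeobox genes, 4 of 38 with a blood-unmethylated region were member genes (Hoxd3, Hoxd4, Pax2 and Lhx1), with a median gain of 17.6 points. Over the whole homeobox list, 9 of 40, 9 of 40, 10 of 40 and 7 of 41 genes had a region called higher in kidney. Those with a region called lower numbered 12, 12, 10 and 8. Pax2, a regulator of nephron formation, had a gene body member (chr1:272025140-272025179) with 16.8%, 45.5%, 24.3% and 22.8% in kidney, and it missed the call in MCW LS with a difference of 9.95 points. The second value is from a region of about the member's limits, and the others are from regions that reach to 272025598 or 272025605. Lhx1 was called in CRL HS but not in MCW LS or CRL LS, where kidney levels were 7.08% and 7.85%. Amn, which with cubilin forms the receptor for protein uptake in the proximal tubule, held 5 members, the most of any gene beside Tacc2. Its first member was called in CRL HS alone. The next 2, which were followed through the same regions, were called in all 4 conditions, with 17.0%, 29.7%, 21.2% and 23.8% in kidney. Another (chr6:144683514-144683713) had 17.0%, 1.95%, 14.8% and 9.34% and was called in 2. Its MCW LS call is not separate, since level, difference and adjusted p there were those of the 2 members before it. The last (chr6:144684869-144684907) had 18.9%, 28.6%, 17.9% and 11.3% and was called in 3. Cubn, the cubilin gene, had 29.4% in kidney at 7 weeks, its only other region. Among members with a region in at least 3 tables, the smallest medians were those of Sipa1 (4.13 points, called in none of 3 tables), 2 regions of Amn, Lhx1 and Osr2.

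Markers of other cell types differed between the tissues too. In the lists for kidney epithelium and for endothelium and stroma, most genes had a region called lower in kidney: 22 of 30 epithelial genes in MCW HS and 23 of 29 to 31 in each other condition, and 10 to 12 of 17 to 20 endothelial and stromal genes. Beside these and the lists that follow, 40.3% of all genes had a region called lower in MCW HS. In the other conditions 42.3%, 31.6%, 41.1% and 31.3% of all genes did. Regions of the epithelial list had medians of 9.09% in blood and 3.31% in kidney for the first condition, then 7.91% and 1.84%, 11.6% and 5.96%, and 9.01% and 2.42%; in MCW HS they were 14.6% and 17.9%. Genes of the same lists called higher in kidney numbered 2 to 4 and 1 to 3. Imprinted genes, with 0 members, were called lower at 16 of 21, 13 of 22, 15 of 21 and 11 of 21 genes. Myeloid genes were called lower at 4 of 7, 3 of 6, 3 of 6 and 3 of 6 and higher at 1 each time, Cybb being the member among them. B cell genes were called lower at 3 of 5, 2 of 4, 2 of 4 and 2 of 5 and higher at 1, 1, 0 and 1, with Pax5 as the member. Natural killer genes were called lower at 2 of 2, 1 of 2, 1 of 3 and 0 of 2 and higher at 0. The part of these cell types in the members' levels was not tested. Of 12 defining T cell genes checked afterwards, Cd3e, Cd3d, Cd3g, Cd4, Cd5 and Lck had no region in the 5 tables. Regions of Zap70 were called lower in kidney in every condition, 2 of 2 each time, while 2 to 5 of the 4 to 8 Cd247 regions were called higher and 0 lower. Cd2 had 2 or 3 regions called lower in each condition and 0 or 1 called higher. Cd8a had 0 or 1 region called higher and 0 lower, as did Cd28 where it had a region. Cd8b had no region called either way.

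Member genes were not methylated throughout in kidney. In MCW HS, 133 of the 273 (48.7%) also had a region called lower in kidney, where 40.3% of all 8976 genes did. In the other conditions the shares were 48.6%, 47.6%, 48.6% and 49.2%, against 42.3%, 31.6%, 41.1% and 31.3%. These shares are a description.

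HS and LS chow were compared in CRL rats, which the rule had not used. In CRL kidney, 128 members had a region, and 14 (10.9%) were called higher on HS chow and 5 (3.91%) lower; 3.29% and 0.428% of all regions were. Among genic regions at or above 15% in 1 of the groups, which can change as members can, 14.1% were called higher and 1.57% lower, so that the members' share of increases was no larger than theirs. The largest increase was in the gene body of Cdc42bpb, a Cdc42-binding kinase, from 29.2% to 52.9%. Elmo1 rose from 37.3% to 52.3% and Klf2 from 25.7% to 40.7%, while Pax2 fell from 46.7% to 28.1%. The adjusted p for Klf2 in the authors' deposited table was 0.039. In CRL blood, 1 of 128 members was called higher and 1 lower, where 0.137% and 0.265% of all regions were; these were Fam189b (8.79% to 20.0%) and Sdc1 (46.2% to 24.0%), named after their values were seen.

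For age, kidney T cells of 10-week and 7-week MCW LS rats were compared, and 5 of 167 members (2.99%) were called higher and 27 (16.2%) lower. Over all regions 0.206% and 3.38% were, and over genic regions of at least 15% in 1 group 0.858% and 15.5%, a share like that of the members. Arhgap30, a GTPase-activating protein of blood cells, was at 52.0% at 7 and 22.1% at 10 weeks at its TSS. Rcan3, a calcineurin regulator, was at 47.2% and 18.6%, and Epsti1 at 56.0% and 29.7%. Wt1, the Wilms tumour transcription factor of podocytes, rose from 10.7% to 24.3%. In blood, 0 of 118 members were called either way, where 0.375% of all regions were called higher and 0.289% lower; by the adjusted p alone, with no minimum difference, 7.63% and 5.93% of members passed in the authors' deposited table, against 5.94% and 3.56% of all regions.

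Between colonies on LS chow, 31 of 144 members in kidney (21.5%) were called higher in CRL and 1 (0.694%) lower. The background was 1.65% and 0.51% of all regions, and 6.58% and 2.6% of genic regions of at least 15% in 1 group, so here members were called higher more often than either. No test of that difference was made, since the members had been chosen for being methylated in kidney. Pced1b was at 49.5% in MCW and 80.7% in CRL, Mlh3, a mismatch repair gene, at 36.8% and 66.4%, Sema4f at 48.5% and 71.8%, and Cd37 at 42.7% and 65.7%. The single decrease was in a member of Amn, from 22.4% to 8.61%, while 2 other members of Amn were called higher. In blood 2 of 118 members were called higher (Cdh3 and Sdc1) and 0 lower, against 1.07% and 0.185% of all regions. The comparisons by age and by colony share the kidney pools of the 10-week MCW LS rats, whose levels were the lowest of the 4 at 89 of 176 members.

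**Figure D4:**
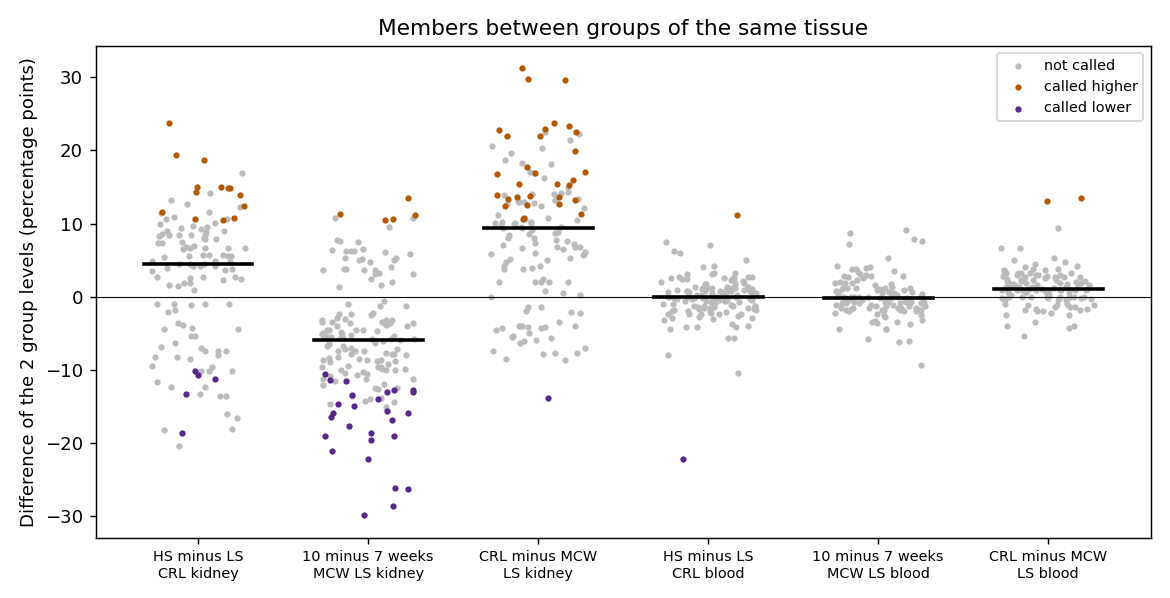
Difference of the 2 group levels (y axis, percentage points) for each member with a region, by comparison (x axis); colour marks the authors' call and black lines medians. Called kidney differences reach 31.2 points at Pced1b, with medians of 4.48 for chow, -5.92 for age and 9.43 for colony, while blood medians lie near 0.

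Leukocyte and kidney epithelial genes were counted in the same 3 kidney comparisons. With age, 0 of 25 genes of the leukocyte list were called higher and 4 lower, and of 29 epithelial genes 0 and 8. In other lists, 10 of 20 imprinted genes and 6 of 16 endothelial and stromal genes were called lower. Of 21 genes of the T cell receptor list, 0 were called higher and 5 lower. With colony, 3 of 21 leukocyte genes were called higher and 0 lower, and 4 and 1 of 25 epithelial genes. With chow the counts were 4 and 0 of 18 leukocyte genes, and 3 and 3 of 26 epithelial genes. Imprinted genes were called higher and lower at 4 and 1 of 20 with colony and at 8 and 1 of 20 with chow. For endothelial and stromal genes the counts were 1 and 0 of 16, and 2 and 0 of 16. For the T cell receptor list they were 1 and 3 of 21, and 3 and 0 of 22. No list was compared with all genes, whose share called was not counted. Over all regions, 0.206% were called higher and 3.38% lower with age, 1.65% and 0.51% with colony, and 3.29% and 0.428% with chow. A gene can hold several regions, so these are not shares of genes. The sources used here give no share of each cell type in the preparations, and its part in these differences was not tested.

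Tables with MCW HS pools, which the rule used, are given as a description. In MCW kidney 39 of 170 members were called higher on HS chow and 0 lower (13.0% and 0.235% of all regions), and in MCW blood 0 of 123 either way (0.2% and 0.268%). Between colonies on HS chow, 12 of 154 members in kidney were called higher in CRL and 6 lower (0.506% and 5.13%), and in blood 3 of 140 and 0 (0.946% and 0.167%).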

How the data were processed

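Methylation levels are the authors' group means, deposited as a fraction between 0 and 1 for each region of at least 5 CpGs and printed here in percent. The deposited tables add, per the file headers, the authors' difference of both levels (a signed score), Mann-Whitney p-value columns with and without adjustment, another p-value, and a q-value. Coordinates are those of rn5, as named in the submitters' processing notes. The aligner, the region caller, read depth, library batches and the convention of start coordinates: not given in the sources used here. With depth unknown, no interval was computed.

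The 15 tables delimit regions separately, with 32843 to 64151 regions each. A member was followed in the other 14 through the region sharing most bases with it (at least 1 bp). A call needed an adjusted p-value under 0.05 and a difference of at least 10 points, both from the authors' tables, and no test of pools was possible. Over members with identical limits, the share of levels agreeing between 2 tables within 0.01 points varied by group. It was lowest for kidney of 7-week rats, with 3 of 70, a median absolute difference of 0.788 points and a largest of 3.32. In kidney of CRL LS rats it was 10 of 38 between the tissue and chow comparisons. For MCW HS kidney the same comparisons gave 63 of 66, and blood of 7-week rats gave 22 of 22. All 273 gene symbols matched GRCr8, 13 of them through 1 synonym. Genes were named for the largest or smallest median gain over the 4 other kidney against blood tables, by up to 4 genes of each of 14 lists, for most members, for the largest called changes and for closeness to the limits; further list genes were added after their values were seen. The members and lists were chosen with earlier results of these data known. The calculations were tested on simulated data and used Python 3.11.15, pandas 2.3.3, numpy 2.4.6 and matplotlib 3.10.9. Alternatives changed the call, the overlap and the choice of members; counting each followed region once, and 1 of each set of identical regions, were chosen after seeing the data.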

Additional observations from a re-analysis of the deposited data

How the results depend on the processing

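No paired analysis was possible because the tables hold no value per pool. Of 232 alternative values over 21 results, 168 equalled the reported share or median or stayed within 1.5 times of it, and 64 moved. Shares cannot be negative, so a change of direction could show only in the medians, and none did. Values below are percentages of the members followed; except where the definition of a call or of the members itself changed, the cause was not tested.

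The higher level in kidney depended mainly on the call. With the q-value under 0.05, 28.4% of members were called in all 4 conditions in place of 87.5%, and 35.8% (MCW LS), 37.4% (CRL LS), 45.1% (CRL HS) and 45.2% (7 weeks) in each. With a difference of at least 20 points the share was 46.6% in all 4 and 59.6% in MCW LS. Leaving out 1 condition at a time gave 86.7% to 91.5%.

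Comparisons within a tissue moved more. For HS against LS chow in CRL kidney, increases (10.9%) became 7.03% at an adjusted p under 0.01, 0.781% with the q-value, 0.781% at 20 points, 20.3% with no minimum difference, 20.0% over members of at least 10 CpGs and 17.2% over members with a gain of at least 25 points. Decreases (3.91%) became 2.34% at an adjusted p under 0.01, 2.25% over members at most 5% in blood, and 0.0% with the q-value, at 20 points, over TSS members and over members of at least 10 CpGs. For age in kidney, decreases (16.2%) became 10.2% at an adjusted p under 0.01, 0.0% with the q-value, 3.59% at 20 points and 26.3% with no minimum. Increases (2.99%) became 0.0% with the q-value and at 20 points, 1.85% over members of at least 10 CpGs and 7.19% with no minimum. For colony in kidney, increases (21.5%) became 13.9% at an adjusted p under 0.01, 0.694% with the q-value, 6.94% at 20 points and 38.0% over members of at least 10 CpGs. Decreases (0.694%, 1 member) became 1.39% with no minimum, 2.0% over members of at least 10 CpGs, and 0.0% at 20 points, over TSS members and over members with a gain of at least 25 points.

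Blood counts rest on 0 to 2 members. With no minimum difference, increases and decreases became 7.63% and 5.93% for age, 12.7% and 5.08% for colony, and 4.69% and 4.69% for chow. Colony increases (1.69%) became 0.847% at an adjusted p under 0.01, 3.39% over members with a gain of at least 25 points, 2.6% with an overlap of at least 50% of the member, and 0.0% with the q-value, at 20 points, over TSS members, members at most 5% in blood and members of at least 10 CpGs. Chow increases (0.781%) became 1.19% over members at most 5% in blood, 2.63% over members of at least 10 CpGs, 1.35% over members with a gain of at least 25 points, and 0.0% over TSS members, at an adjusted p under 0.01, with the q-value, at 20 points and at 50% overlap. Chow decreases (0.781%) became 1.35% over members with a gain of at least 25 points, 1.18% at 50% overlap, and 0.0% with the q-value and over TSS members, members at most 5% in blood and members of at least 10 CpGs.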
